A study of Mus musculus with 6 samples.

Results

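The fibroblast growth factor (FGF) genes examined here are 38 genes in 3 roles: 22 ligands, 5 receptors, and 11 genes that act as feedback inhibitors or transcriptional targets of the pathway. They were chosen by gene symbol, and each is represented by the brightest probe set that carries its symbol and no other. All 38 had such a probe set and all passed the filter on low values, among 18710 genes tested in all. Their values come from 6 Affymetrix arrays of embryonic mouse spleen at E13.5, 3 of them from embryos heterozygous and 3 from embryos homozygous at Tlx1. Tlx1 encodes a homeobox transcription factor without which the spleen does not form, and the series title frames the study around its control of retinoic acid signalling. The labels give the zygosity and not the allele, strain or sex, so homozygous is read here as carrying the altered allele on both chromosomes. Heterozygous embryos carry that allele too, and wild-type spleens were not analysed here. The labels do not say whether a replicate is 1 embryo or a pool, and the p-values measure only how far these samples spread, which can be technical.

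FGF ligands are secreted or, for 1 subfamily, intracellular proteins. The secreted ones bind FGF receptors, which are tyrosine kinases, together with heparan sulfate or, for the endocrine ligands, with a Klotho protein. Activated receptors signal through adaptor proteins, Ras and the MAP kinases. Sprouty and Spred proteins and the phosphatase DUSP6 damp that cascade, and ETS factors of the Etv1, Etv4 and Etv5 group carry it to target genes, so that transcripts of both kinds are widely used as readouts of FGF activity. In the developing gut region, mesenchyme and mesothelium supply FGFs such as FGF9 and FGF10 to neighbouring mesenchyme and epithelium.

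Array medians lay between 106 and 110.5 intensity units. Tlx1 itself was at 825, 706 and 719 on the heterozygous arrays and at 171, 209 and 199.9 on the homozygous arrays, a log2 fold change of -1.95 ± 0.09 (standard error, SE; limma adjusted p = 1.3e-05). Fold changes are homozygous minus heterozygous on the log2(intensity + 1) scale, and a gene was called where the adjusted p over all genes tested was below 0.05. Of 5 tested markers of spleen mesenchyme, Tlx1 among them, 4 were called lower, against 6.56% of all genes. Besides Tlx1 these were Nkx2-5 (-1.36), Nkx3-2 (-1.23) and Tcf21 (-0.26), while Barx1 was at 0.27 and not called (adjusted p = 0.0517). The summed intensity of the 5 was 6533 to 6648 on heterozygous and 4667.5 to 5337 on homozygous arrays. Tcf21 was the brightest of them, at 3424 and 2863 in group means. Over all genes the fold change moved with signal. Its median was 0.129 in the dimmest quartile of genes (mean intensity up to 60) and 0.112 in the next, against -0.054 and -0.0457 in the brighter quartiles. Cyclic loess between arrays, which levels out such a trend, brought these medians to 0.0466, 0.0414, -0.015 and -0.00132.

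Promoter sequences are shown for 3 of the feedback genes, because Dusp6 and Spred1 fell in homozygous spleens while Spred3 rose. That of the receptor gene Fgfrl1 is shown because it alone among the 28 members with a promoter window held the longer ETS motif searched for. Each line gives the 250 bases before the annotated start from RefSeq, build GRCm38.p6, 5′ to 3′ along the gene. Capitals mark GGAAG, the short motif searched for here as a site of ETS factors such as the Etv proteins, or its reverse complement CTTCC. Shorter or other forms of ETS sites were not marked.
Dusp6, chr10:99262981-99263230, plus strand: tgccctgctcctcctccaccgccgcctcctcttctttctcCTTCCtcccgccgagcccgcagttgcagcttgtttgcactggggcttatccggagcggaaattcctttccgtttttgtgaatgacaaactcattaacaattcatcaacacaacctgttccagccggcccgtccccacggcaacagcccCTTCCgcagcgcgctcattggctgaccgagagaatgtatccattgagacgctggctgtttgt
Spred1, chr2:117120821-117121070, plus strand: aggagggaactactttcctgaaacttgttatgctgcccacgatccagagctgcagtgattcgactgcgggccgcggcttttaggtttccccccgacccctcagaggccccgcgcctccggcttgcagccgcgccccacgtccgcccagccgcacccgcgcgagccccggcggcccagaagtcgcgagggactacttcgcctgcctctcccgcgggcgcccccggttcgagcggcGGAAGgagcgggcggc
Spred3, chr7:29168648-29168897, minus strand: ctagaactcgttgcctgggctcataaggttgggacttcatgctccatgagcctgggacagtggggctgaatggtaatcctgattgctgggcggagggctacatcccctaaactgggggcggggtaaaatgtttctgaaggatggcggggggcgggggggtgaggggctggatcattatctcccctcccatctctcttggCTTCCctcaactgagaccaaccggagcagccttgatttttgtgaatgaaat
Fgfrl1, chr5:108693979-108694228, plus strand: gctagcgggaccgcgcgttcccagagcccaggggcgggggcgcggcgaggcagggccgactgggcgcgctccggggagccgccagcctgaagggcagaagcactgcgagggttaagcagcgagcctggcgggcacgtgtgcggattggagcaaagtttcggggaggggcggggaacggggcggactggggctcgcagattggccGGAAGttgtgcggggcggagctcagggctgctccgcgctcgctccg
The marked motif was found at 2 places in the Dusp6 window, with first bases at -210 and -62 from the start. It was at 1 place in the windows of Spred1 (-16), Spred3 (-51) and Fgfrl1 (-46). It is a short motif, found on either strand in 64.1% of the 32851 promoter windows of this length in the table. RefSeq windows were found for 28 of the 38 members, 37 windows in all, and 24 of these held it. The longer form CCGGAAG, which overlaps the marked motif, was in 6.91% of all windows and in 1 of the 37, that of Fgfrl1. The nuclear receptor half-site AGGTCA, of the kind used by retinoic acid receptors, was in 14% of all windows and in 3 of the 37 (Fgf6, Fgf7 and 1 of 4 windows of Fgf12). None of those 3 genes was called.

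Of the 38 FGF genes, 15 passed the threshold, 7 higher and 8 lower in homozygous spleens. That is 39.5% of them, against 17.0% of all genes tested, with 10.4% of all genes higher and 6.56% lower. The changes were small. Among called members they ranged in size from 0.23 to 0.49 on the log2 scale. The median log2 fold change of the 38 was 0.08, against 0.02 for all genes. The groups did not overlap for 19 of the 38 genes, 10 higher and 9 lower, among them all 15 called. Over all genes tested the groups did not overlap for 38.3%, with 21.1% higher and 17.2% lower. By role, 5 of 22 ligands rose and 2 fell, 1 of 5 receptors fell and none rose, and 2 of 11 feedback and target genes rose while 5 fell. Whether these roles differ from each other was not tested. In bulk tissue, fewer cells of a type and less RNA per cell cannot be told apart.

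**Figure D1:**
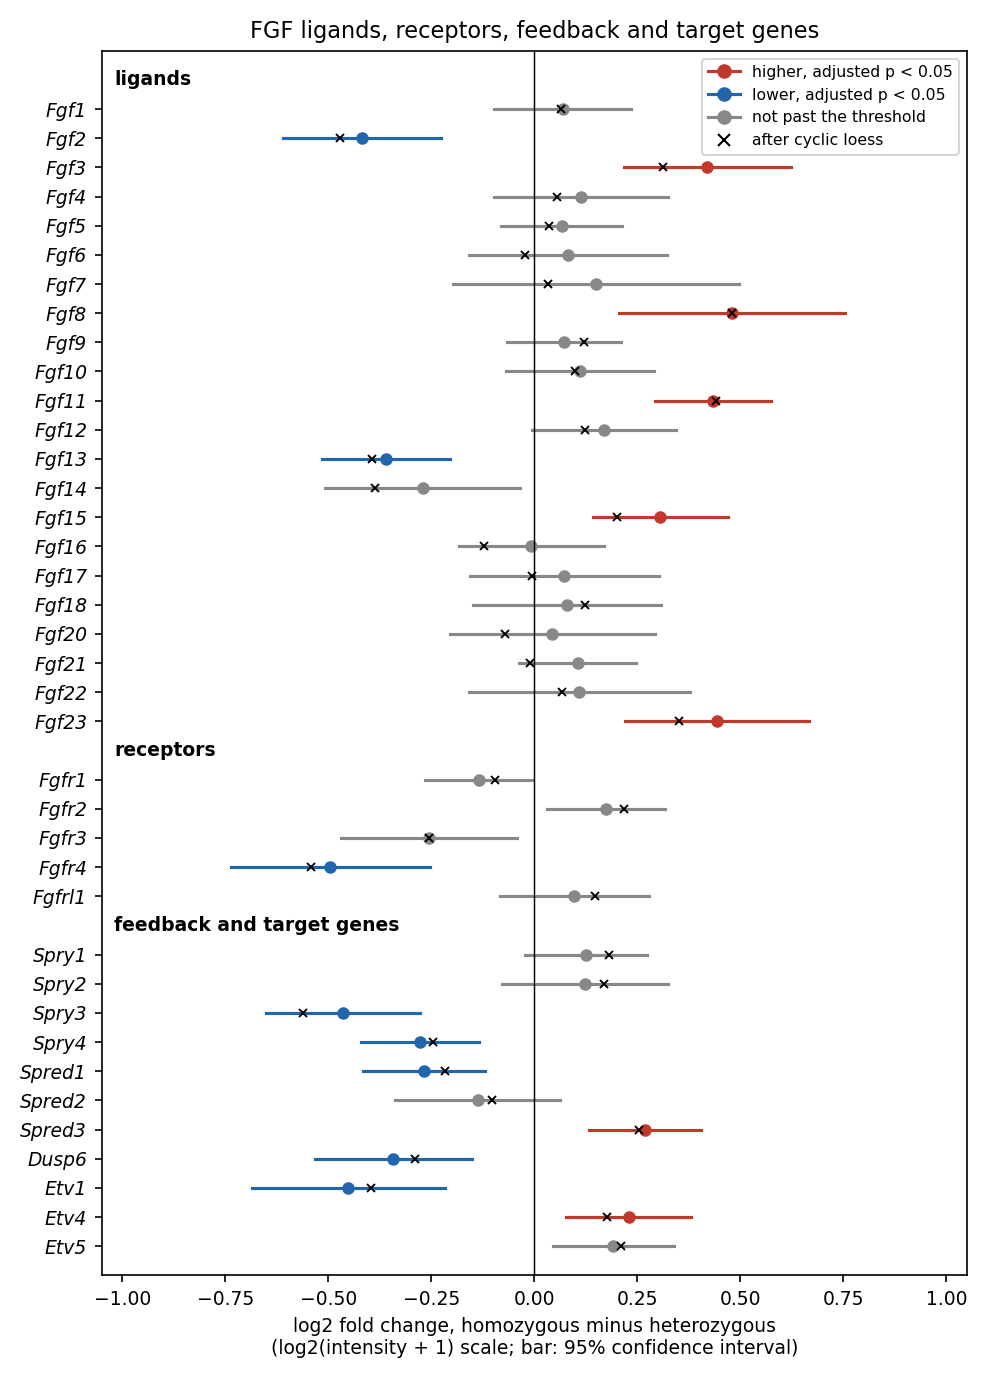
Log2 fold change (x axis, homozygous minus heterozygous) of the 38 FGF genes (y axis, by role). Points are limma estimates from 3 arrays per group with 95% confidence intervals, red for higher, blue for lower, grey for not past the threshold, and crosses are the estimates after cyclic loess. Of 22 ligand estimates 18 lie right of 0, as do 10029 of those of all 18710 genes. After cyclic loess Fgf6, Fgf17, Fgf20 and Fgf21 lie left of 0. Of 11 feedback and target genes 5 were called left of 0 and 2 right of it.

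Among the ligands, the rises were those of Fgf8, Fgf23, Fgf11, Fgf3 and Fgf15. Fgf8, a morphogen of the limb bud, the heart field and the brain, was at 152, 139 and 164 on the heterozygous arrays and at 197, 187 and 257 on the homozygous arrays. All homozygous values lay above all heterozygous ones, with homozygous replicate 3 the highest by a wide margin. Its log2 fold change was 0.48 ± 0.12 (SE; adjusted p = 0.0304), a 1.39-fold rise. Fgf3, a ligand of the Fgf7 subfamily that is needed for the inner ear, was at 56.6, 58.2 and 66.2 in heterozygous and at 85.3, 72.7 and 85.3 in homozygous samples. The groups did not overlap, and the log2 fold change was 0.42 ± 0.09 (SE; adjusted p = 0.0169).

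Endocrine FGFs travel in the blood and need a Klotho protein as co-receptor. Fgf23, the bone-derived hormone that controls phosphate, was at 66.5, 66.6 and 80.2 in heterozygous and at 99.1, 86.8 and 105 in homozygous spleens (log2 fold change 0.44 ± 0.10, SE; adjusted p = 0.0201). Fgf15, the gut hormone that restrains bile acid synthesis in the liver, was at 61.4, 62.4 and 68.4 against 83.0, 80.9 and 74.3 (0.31 ± 0.07, SE; adjusted p = 0.0249). Neither pair of groups overlapped. The remaining member of that subfamily, Fgf21, a metabolic hormone, was at 51.8 ± 2.44 and 55.8 ± 1.32 (SD, n = 3; adjusted p = 0.273). All 3 were dim, with means over the 6 arrays of 53.8 to 84.0. In the quartile of genes that holds Fgf3, Fgf15 and Fgf23, 18.7% of all genes were called higher and 6.54% lower. The rise of Fgf15 was not called after cyclic loess (0.20, adjusted p = 0.0938), whereas Fgf3 (0.31, adjusted p = 0.0277) and Fgf23 (0.35, adjusted p = 0.0293) were.

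The intracellular FGFs, also called FGF homologous factors, do not act through FGF receptors and instead bind sodium channels and scaffold proteins. Members of this subfamily went in opposite directions. Fgf11 was at 161, 168 and 166 on the heterozygous arrays and at 222, 214 and 233 on the homozygous arrays. The arrays of each group lay close together, and the log2 fold change was 0.43 ± 0.06 (SE; adjusted p = 0.00371), the smallest adjusted p among the 38. Fgf13, which is X-linked, was at 153, 161 and 145 against 116, 115 and 126 (-0.36 ± 0.07, SE; adjusted p = 0.0116). Its highest homozygous value lay below its lowest heterozygous one. Fgf14 was at 57.0, 51.6 and 67.1 against 52.2, 48.3 and 44.0, groups that overlapped, and did not pass (-0.27 ± 0.10, SE; adjusted p = 0.105). It passed after cyclic loess (-0.39, adjusted p = 0.0305) and after quantile normalization. Fgf12 was at 117 ± 6.47 and 132 ± 9.92 (SD, n = 3; adjusted p = 0.156).

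Fgf2, a broadly acting ligand of mesenchyme and endothelium, fell. It was at 138, 139 and 129 on the heterozygous arrays and at 102, 90.4 and 111 on the homozygous arrays, with no overlap. The log2 fold change was -0.42 ± 0.08 (SE; adjusted p = 0.0146), a 1.34-fold fall. Fgf1, the other member of its subfamily, was at 169 ± 11.9 and 177 ± 7.40 (SD, n = 3), with overlapping groups (adjusted p = 0.543). In the RefSeq gene order Fgf2 is followed by Nudt6, an antisense partner, which was at 117 and 112 and was not called (-0.07, adjusted p = 0.614).

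The other 15 ligands did not pass, and the groups overlapped in all of them. Their log2 fold changes ran from -0.27 to 0.17, and the 95% confidence limits of these estimates reached from -0.51 to 0.50 over the set. They include the ligands best known from gut and spleen mesenchyme. Fgf9, which mesothelium and epithelium supply to mesenchyme, was at 835, 882 and 843 in heterozygous and at 916, 908 and 867 in homozygous samples (0.07, 95% confidence interval -0.07 to 0.21; adjusted p = 0.435). Fgf10, the mesenchymal signal to pancreatic and lung epithelium, was at 141, 165 and 166 against 163, 171 and 176 (0.11, interval -0.07 to 0.29; adjusted p = 0.361). Fgf18, a ligand of the Fgf8 subfamily, was at 248, 319 and 313 against 311, 322 and 292 (adjusted p = 0.617). Its group means of 293 and 308 differ by less than the SD of 39.2 among heterozygous arrays. None of Fgf4, Fgf5 and Fgf6, which make up a subfamily, was called. Nor were Fgf16 and Fgf20, which belong with Fgf9, nor Fgf7 and Fgf22, which belong with Fgf3 and Fgf10, nor Fgf17 beside Fgf8. The dimmest of these was Fgf6, with a mean of 38.7 over the 6 arrays. The arrays give no background call for a probe set here, so such a low intensity is no proof that the gene is expressed.

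**Figure D2:**
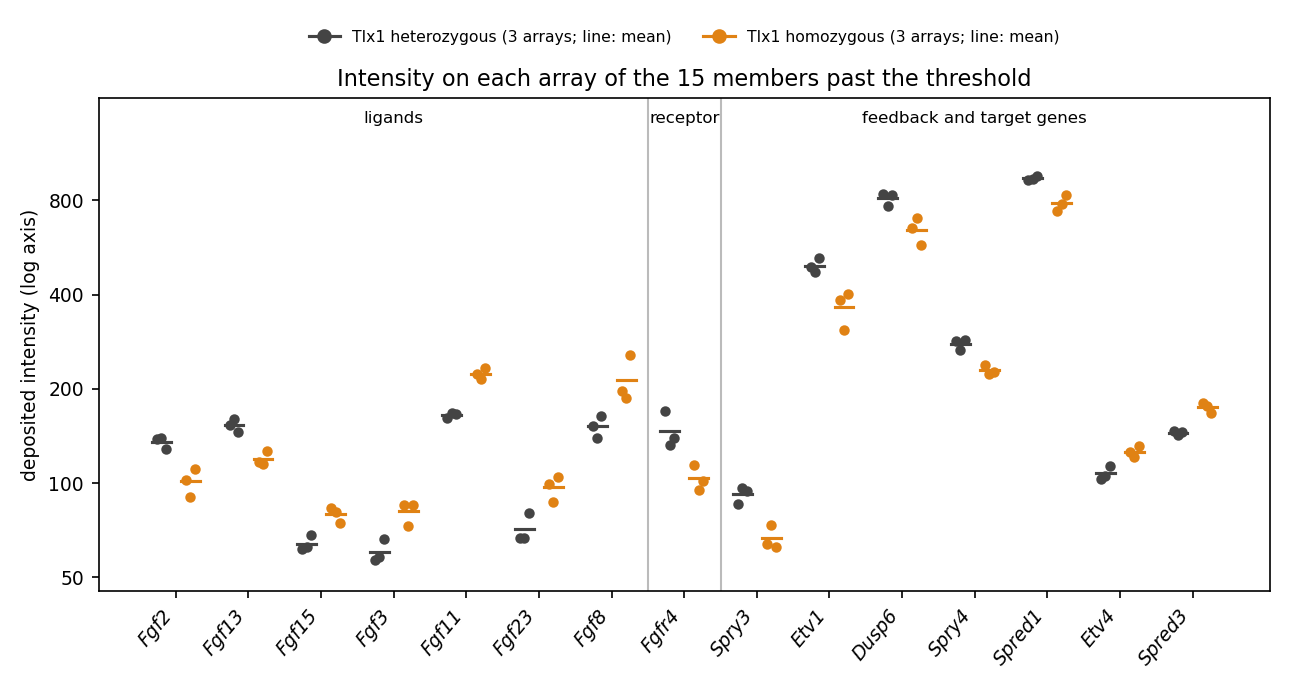
Deposited intensity on each array (y axis, log scale) of the 15 FGF genes past the threshold (x axis, by role), with 3 heterozygous arrays in grey and 3 homozygous arrays in orange and a line at each group mean. In no gene do the groups overlap, and the widest spread among homozygous ligand values is that of Fgf8, from 187 to 257.

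Of the receptors only Fgfr4 passed, and it was lower in homozygous spleens. Fgfr4, the receptor through which FGF15 acts on hepatocytes, was at 170, 132 and 139 in heterozygous and at 114, 95.2 and 102 in homozygous samples. The groups did not overlap, and its log2 fold change of -0.49 ± 0.11 (SE; adjusted p = 0.0177), a 1.41-fold fall, was the largest among the 38 genes by size. Fgfr1, the main receptor of mesenchyme, was at 1531, 1503 and 1579 against 1411, 1411 and 1381. The homozygous values lay below the heterozygous ones, but the difference was small and did not pass (-0.13 ± 0.06, SE; adjusted p = 0.140). Fgfr2, whose splice forms serve epithelium and mesenchyme, was at 297, 289 and 297 against 342, 313 and 342, also without overlap and without passing (0.17 ± 0.06, SE; adjusted p = 0.0909). Each of these receptor genes had 1 probe set of its own, so the splice forms of Fgfr1, Fgfr2 and Fgfr3 are not told apart. Fgfr2 passed after quantile normalization and with array weights.

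Fgfr3, which restrains cartilage growth, was at 214, 196 and 180 against 163, 149 and 182, and the groups overlapped through homozygous replicate 3. Its log2 fold change was -0.26 ± 0.09 (SE; adjusted p = 0.0937), and it passed with array weights. Fgfrl1, a receptor that lacks the kinase domain, was at 348.5, 382 and 359 against 388, 355 and 425, with overlapping groups, and did not pass (0.10 ± 0.08, SE; adjusted p = 0.427). In unadjusted terms, 4 of the 5 receptors had limma p below 0.05, as did 6382 of all 18710 genes tested.

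Of the 11 feedback inhibitors and targets 7 were called, 5 of them lower. Dusp6, the phosphatase that inactivates ERK and whose transcript follows FGF activity in many embryonic tissues, fell. It was at 840.5, 770.5 and 836 on the heterozygous arrays and at 653, 705 and 578 on the homozygous arrays. No homozygous value reached the heterozygous range, and the log2 fold change was -0.34 ± 0.08 (SE; adjusted p = 0.0279), a 1.27-fold fall. Spred1, which blocks Raf activation by Ras, was at 931, 939 and 960 against 741, 779 and 833 (-0.27 ± 0.07, SE; adjusted p = 0.0275). Its groups did not overlap. Spred2, a close relative, was at 1715, 1856 and 1953 against 1724, 1492 and 1816, with overlapping groups (-0.14 ± 0.09, SE; adjusted p = 0.308). Spred3, the family member that lacks a functional Kit-binding domain, rose from 147, 143 and 145 to 180.3, 176 and 168 (0.27 ± 0.06, SE; adjusted p = 0.0201). The Spred genes thus held 1 fall, 1 rise and 1 gene not called.

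Sprouty proteins intercept the signal between receptor and Ras. Spry3, the X-linked member, was at 85.5, 96.3 and 94.4 in heterozygous and at 64.0, 73.2 and 62.4 in homozygous spleens (-0.46 ± 0.08, SE; adjusted p = 0.00875). Spry4 was at 284, 266 and 286 against 238, 223 and 227 (-0.28 ± 0.06, SE; adjusted p = 0.0216). Both had groups that did not overlap. Spry1, which restrains FGF and GDNF signals in the kidney, was at 443, 414 and 419 against 447, 456 and 490.5, and Spry2, the Sprouty of lung and inner ear, at 1044, 924 and 868.5 against 1046, 942 and 1099. Neither passed, with log2 fold changes of 0.12 each and adjusted p of 0.212 and 0.364. Homozygous Spry1 values lay just above the heterozygous ones, whereas those of Spry2 overlapped.

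The 3 ETS factors of the group did not move alike. Etv1 fell from 490.3, 472 and 524 to 384, 307 and 402 (-0.45 ± 0.10, SE; adjusted p = 0.0222). A second probe set listed under Etv1 gave -0.57 in a fit over all kept probe sets (adjusted p = 0.000728). Etv4 rose slightly, from 103, 105 and 114 to 126, 121 and 131 (0.23 ± 0.07, SE; adjusted p = 0.0476), a call at the edge of the threshold. Etv5 was at 203, 202 and 197 against 236, 237 and 215, groups that did not overlap, and did not pass (0.19 ± 0.06, SE; adjusted p = 0.0730). Its second probe set gave 0.22 (adjusted p = 0.0742). Where the probe sets of Etv1 and Etv5 lie was not checked, so the tie of each to its gene rests on the annotation table. Probe set numbers of the other members run by chromosome. The Etv5 set used is numbered next to that of Fgf22 on chromosome 10, although Etv5 is on chromosome 16. The second Etv1 set is numbered between those of Fgfr4 and Fgf10 on chromosome 13, although Etv1 is on chromosome 12. Whether the Etv5 set used and the second Etv1 set measure those genes is thus in doubt. Etv5 passed under 4 other settings, among them the mean of its kept probe sets.

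**Figure D3:**
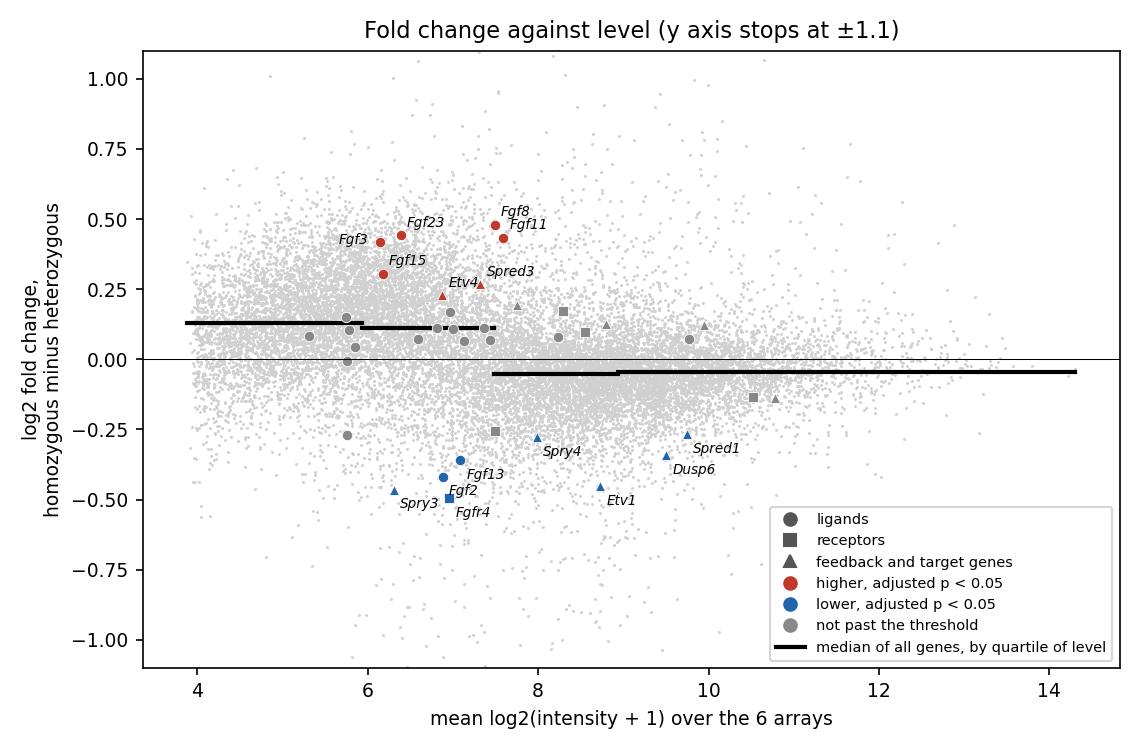
Log2 fold change (y axis, homozygous minus heterozygous) against mean log2(intensity + 1) over the 6 arrays (x axis) for all 18710 genes in grey and the 38 FGF genes as coloured symbols by role and call. Black bars mark the median of all genes in each quartile of level, at 0.129, 0.112, -0.054 and -0.0457, so dim genes lean upward and bright genes downward in these data.

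The level trend is given here beside the calls because it differs between dim and bright genes. Of the 22 FGF genes in the dimmer 2 quartiles of all genes, 5 rose and 4 fell, and of the 16 in the brighter 2 quartiles, 2 rose and 4 fell. Over all genes, 13.4% rose and 1.6% fell in the dimmest quartile and 18.7% and 6.54% in the next, against 5.82% and 11.2% in the third and 3.74% and 6.88% in the brightest. After cyclic loess 12 of the 15 members kept their call, with Fgf15, Spred1 (-0.22, adjusted p = 0.0583) and Etv4 (0.18, adjusted p = 0.0950) no longer past the threshold. The falls of Fgf2 (-0.47), Fgf13 (-0.39), Fgfr4 (-0.54) and Spry3 (-0.56), all in the second quartile, were larger by size after cyclic loess. Those of Dusp6 (-0.29, adjusted p = 0.0496), Etv1 (-0.40) and Spry4 (-0.25) were smaller and stayed past the threshold.

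Calls of single members also depended on which arrays entered. Fgf11 and Spry3 kept their calls in all 6 refits that left out 1 array. Fgf13 lost its call without homozygous replicate 1, Fgfr4 without homozygous replicate 3 and Fgf2 without heterozygous replicate 2 or homozygous replicate 1. Leaving out heterozygous replicate 1 or 2, or homozygous replicate 1 or 3, ended the calls of Fgf3, Fgf8, Fgf23 and Etv4. Leaving out heterozygous replicate 1, heterozygous replicate 2 or homozygous replicate 1 ended those of Fgf15 and Spred3. Spred1 lost its call without any 1 heterozygous array or without homozygous replicate 1, and Dusp6 in every refit but that without homozygous replicate 2. The arrays whose removal ended the call of Etv1 were heterozygous replicates 1 and 3 and homozygous replicate 1, and for Spry4 homozygous replicate 3 as well. No called member changed sign. The refitted log2 fold changes ran from -0.41 to -0.26 for Dusp6, from -0.31 to -0.23 for Spred1, from -0.53 to -0.33 for Etv1 and from -0.31 to -0.26 for Spry4. They ran from 0.34 to 0.57 for Fgf8, from 0.38 to 0.50 for Fgf3, from 0.38 to 0.53 for Fgf23, from 0.27 to 0.35 for Fgf15, from 0.20 to 0.27 for Etv4 and from 0.25 to 0.30 for Spred3. They ran from -0.49 to -0.34 for Fgf2, from -0.40 to -0.33 for Fgf13 and from -0.57 to -0.39 for Fgfr4. Without homozygous replicate 2, all 15 members kept their calls.

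The labels do not give the sex of the samples. The mean log2 intensity of 3 Y-linked genes was 8.76, 8.08 and 8.99 in heterozygous and 8.22, 8.12 and 8.07 in homozygous samples, highest in heterozygous replicates 1 and 3. With that level as a covariate, 6 of the 15 members stayed past the threshold: Fgf2 (-0.47), Fgf3 (0.49), Fgf11 (0.42), Fgf13 (-0.43), Fgf23 (0.54) and Spry3 (-0.50). The others kept their direction, with Dusp6 at -0.27 (adjusted p = 0.169), Fgfr4 at -0.40 (adjusted p = 0.111), Fgf8 at 0.57 (adjusted p = 0.0642) and Etv1 at -0.38 (adjusted p = 0.123).

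Other genes of the pathway were taken from 4 lists chosen from general knowledge, with earlier results of these data known. The lists hold 100 genes, of which 90 were tested. Of these 13 rose and 13 fell, 28.9% together, with a median log2 fold change of 0.00, against 17.0% called and a median of 0.02 over all genes. Cofactors and heparan sulfate genes held 8 rises and 4 falls among 25 tested (median 0.11). Klb and Kl, which encode the Klotho co-receptors of the endocrine FGFs, rose but were dim. Klb was at 33.6, 31.3 and 32.5 in heterozygous and at 52.4, 46.6 and 46.4 in homozygous spleens (0.56 ± 0.07, SE; adjusted p = 0.00224), and Kl at 31.3 ± 0.372 against 43.7 ± 7.68 (SD, n = 3; 0.45 ± 0.12, SE; adjusted p = 0.0319). Kl was not called after cyclic loess (0.35, adjusted p = 0.0554) or with the Y-linked covariate (adjusted p = 0.106), and was called in 1 of the 6 refits without 1 array. Flrt2, whose membrane protein binds FGF receptors and guides cells, rose from 755 ± 8.47 to 1211 ± 86.1 (SD, n = 3; 0.68 ± 0.07, SE; adjusted p = 0.000792). Its relative Flrt3 rose from 278 ± 20.5 to 402 ± 51.8 (SD, n = 3; 0.53 ± 0.10, SE; adjusted p = 0.0114). Gpc4, a cell-surface heparan sulfate proteoglycan, fell from 629.7 ± 51.9 to 421 ± 9.96 (SD, n = 3; -0.58 ± 0.07, SE; adjusted p = 0.0024). The brighter Gpc3, from the same family, rose from 6566 to 7800 in group means (0.25, adjusted p = 0.0255). It was called in 3 of the 6 refits without 1 array and not with the Y-linked covariate. Gpc1 (-0.30) and Gpc6 (0.11) were not called. Both sulfatases that trim heparan sulfate outside the cell rose, Sulf2 by 0.48 and Sulf1 by 0.37. The enzymes Ndst2 (-0.36), Hs6st1 (-0.29) and Glce (-0.23) that build or modify heparan sulfate fell. Hs6st2 rose by 0.24, and the other tested heparan sulfate enzyme genes Ext1 (0.18), Hs2st1 (0.04) and Ext2 (0.02) were not called. Sulf1, Hs6st2, Hs6st1 and Glce kept their calls in 1 of the 6 refits without 1 array. After cyclic loess Hs6st1 (adjusted p = 0.0954) and Glce (adjusted p = 0.0953) were not called, while Sulf1 and Hs6st2 were.

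Among 24 tested transducers from receptor to MAP kinase 1 fell, the adaptor gene Gab2, from 700.3 ± 15.96 to 589 ± 19.2 (SD, n = 3; -0.25 ± 0.06, SE; adjusted p = 0.0259), and it was not called after cyclic loess (-0.19, adjusted p = 0.0642). In limma none rose. Unadjusted p was below 0.05 for 7 of the 24, against 6382 of all 18710 genes tested. These genes had a median of -0.04 on the log2 scale, and the estimates ran from -0.25 to 0.29.

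Among 17 other negative regulators 4 rose and 2 fell, against 10.4% and 6.56% of all genes tested. Shisa3, whose protein holds FGF and Wnt receptors back in the endoplasmic reticulum, was at 212, 219.7 and 230.1 in heterozygous and at 664, 768 and 733 in homozygous spleens (1.70 ± 0.07, SE; adjusted p = 5.86e-06). It was put on the list with its rise known. The phosphatase genes Dusp9 (0.57 ± 0.07, SE) and Dusp5 (0.43 ± 0.09, SE) and Shisa2 (0.35 ± 0.08, SE) rose as well, so the ERK phosphatase genes that passed went in opposite directions, Dusp6 down and Dusp5 and Dusp9 up. For Dusp5 the call ended when heterozygous replicate 2 or homozygous replicate 1 was left out (0.35 to 0.51), and Dusp9 kept its call in all 6 refits. Shisa2 was called in 2 of the 6 refits and not with the Y-linked covariate (adjusted p = 0.0909). The falls were those of the ubiquitin ligase gene Cblb (-0.31) and the Ras GTPase activator gene Rasa3 (-0.30).

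Of 24 other genes known to respond to FGF or MAP kinase, 6 fell and 1 rose, against 6.56% and 10.4% of all genes tested. Sox9, a factor of progenitors in cartilage and pancreas, fell from 292 ± 24.9 to 172 ± 12.0 (SD, n = 3; -0.76 ± 0.08, SE; adjusted p = 0.00124). The proto-oncogene Mycn fell by 0.41, and the ETS factor genes Ets2 and Ets1 by 0.40 and 0.39. The 1 rise was that of the AP-1 gene Fosl1 (0.41 ± 0.11, SE), which was not called after cyclic loess (0.29, adjusted p = 0.110) and was called in 1 of the 6 refits. Among immediate early genes, Ier2 fell (-0.26, adjusted p = 0.0381), but none of the 6 refits without 1 array called it. Egr1 (0.06, adjusted p = 0.696) and Fos (0.18, adjusted p = 0.313) did not pass. Most genes on this list also respond to other signals.

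**Figure D4:**
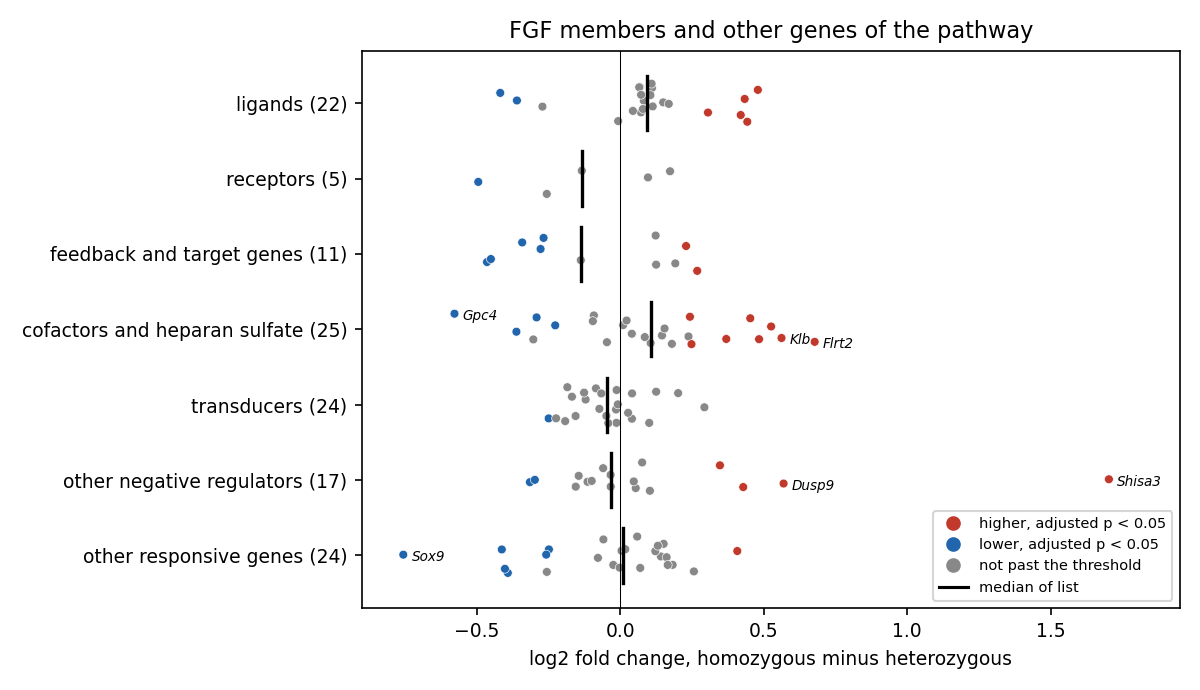
Log2 fold change (x axis, homozygous minus heterozygous) of each tested gene of the 3 FGF roles and the 4 further pathway lists (y axis, number tested in brackets), with a black bar at each median. Vertical scatter within a row has no meaning; Shisa3 at 1.70 stands farthest from 0, and the transducers cluster near 0 with 1 call.

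Markers of other cell types moved in the same samples, in which 10.4% of all genes tested were called higher and 6.56% lower. Counting tested markers, 9 of 10 for endothelium fell, and their summed intensity was 8107 to 8476 on heterozygous arrays and 5800.3 to 6263 on homozygous arrays. Of 8 erythroid markers 5 fell (11091 to 12128 against 8907 to 9619). Most of that sum is Hbb-y, at 10103 against 8413 in group means (-0.26). The other falls were those of Hbb-bh1 (-1.06), Rhag (-0.91), Alas2 (-0.72) and Epb42 (-0.69). Slc4a1 (-0.52), Klf1 (-0.32) and Epor (0.05) were not called. Of 10 epithelium markers 4 rose and none fell (2785 to 3574 against 3673 to 3995), as did 3 of 5 exocrine pancreas markers (553 to 1107 against 1903 to 2115) and 2 of 5 enteric neuron and neural crest markers (429.9 to 477 against 647 to 698). Most of the difference in the pancreas sum is that of Cpa1, at 534 against 1664 in group means (1.77), while the other 4 were at 0.19 to 0.35 on the log2 scale. Among 7 macrophage markers none passed in limma, and 3 had an unadjusted p below 0.05, as did 6382 of all 18710 genes tested. Of 6 mesothelium markers 1 rose and 1 fell, as among 8 smooth muscle and fibroblast markers. None of these marker sums was near 0 on any array. Fgf2 is made by endothelium among other tissues, and Fgfr2 and Fgfr4 are known from gut and pancreatic epithelium. The part of these cell types in the FGF results was not tested.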

How the data were processed

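RNA of 6 embryonic spleen samples was hybridised to Affymetrix arrays. The authors deposited linear intensities made with GCRMA, 1 value for each probe set on each array, per the submitters' processing notes. No version or probe set definition is named in the sources used here. The table holds 35512 probe sets, of which a platform annotation table names 21789 with 1 symbol. Values were taken as log2(intensity + 1), which pulls fold changes of dim genes toward 0. Probe sets with a log2 value of at least 4 (intensity 15) on at least 3 arrays were kept, 20424 in all, and the brightest per gene was used, giving 18710 genes. Homozygous was compared with heterozygous with limma 3.58.1 in R 4.3.3 (lmFit, eBayes), two-sided, with Benjamini-Hochberg adjustment over all genes. Confidence intervals use the moderated degrees of freedom at a 95% level.

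The FGF genes, further pathway lists and cell type markers were chosen with earlier results of these data known, so no test is given for a list. Every called FGF gene is named with its value on each array, as are those with an unadjusted p below 0.05 and the 2 brightest uncalled genes per role; from each further list up to 4 called genes with the largest change are named. Other genes given by value were chosen after their values were seen. Marker lists are given by counts and sums, with some single markers. Same-numbered replicates were checked for pairing: their deviations from the group means correlated across genes at -0.0108, 0.0397 and -0.108. No strong shift shared by same-numbered arrays was thus seen, which cannot exclude pairing. The labels do not say whether the numbers pair the samples, and the main fit is unpaired. Alternatives were other filters, pseudocounts and probe set choices, quantile normalization, median centring, cyclic loess, another variance model, array weights, a replicate block, a Y-linked covariate (3 of 4 planned genes had a probe set of their own) and refits without each array. The fit was tested on simulated data. Precision is limited by having 3 arrays per group.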

Additional observations from a re-analysis of the deposited data

How the results depend on the processing

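Counts of called FGF genes stayed within 1.5 times 7 higher and 8 lower under every filter, pseudocount, probe set choice, scaling, variance model and array weighting tried. With the Y-linked covariate 3 rose and 3 fell. Over the refits without 1 array the counts ran from 1 to 7 higher and from 2 to 8 lower: without homozygous replicate 1 there were 1 and 2, without heterozygous replicate 1 there were 1 and 4, without heterozygous replicate 2 there were 1 and 5, without homozygous replicate 3 there were 3 and 5, and without heterozygous replicate 3 there were 7 and 4. For all genes the counts of 1951 higher and 1227 lower became 1140 and 507 with that covariate and ran from 699 to 2319 and from 499 to 1244 without 1 array. For the other pathway genes, 13 higher and 13 lower became 6 and 5 with the covariate, and the falls numbered 8 after quantile normalization, after cyclic loess and with the replicate block; without 1 array they ran from 6 to 13 higher and from 6 to 12 lower. The cause was not tested.

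The replicate block gave 6 higher and 8 lower FGF genes, on replicate numbers that the labels do not say pair the samples. Of the 15 called members it ended the call of Etv4 (adjusted p = 0.0622). Etv4 was also not called without the filter, after quantile normalization or median centring, or with a variance trend and robust fit, and Spry4 was not called after quantile normalization. Sign changes touched only members that were not called. After cyclic loess Fgf6 was at -0.022, Fgf17 at -0.0046, Fgf20 at -0.071 and Fgf21 at -0.011, and after quantile normalization Fgf20 was at -0.0036. Fgf16, at -0.0072, was at 0.038 with array weights and 0.12 with the covariate, and from -0.075 to 0.034 without 1 array. Without 1 array Fgf6 ran from -0.039 to 0.14, Fgf17 from -0.017 to 0.17, Fgf18 from -0.036 to 0.14 and Fgf20 from -0.059 to 0.17.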

Other observations

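Several FGF genes lie side by side in the RefSeq gene order, and their values are given here along that order. On chromosome 7, Fgf3, Fgf4 and Fgf15 follow each other, with Ccnd1, the cyclin D1 gene, beyond 1 further gene. Fgf3 (0.42) and Fgf15 (0.31) rose, Fgf4 between them was at 0.11 (adjusted p = 0.427), and Ccnd1 fell from 1204 to 1013 in group means (-0.25, adjusted p = 0.0429). None of the 6 refits that left out an array called it (-0.27 to -0.20). On chromosome 6, Fgf6 (0.08, adjusted p = 0.622) is followed by Fgf23 (0.44) and, beyond 1 further gene, by the cyclin D2 gene Ccnd2 (5291 and 5307, not called). On chromosome 3, Fgf2 fell, while Spry1, 2 genes further on, was at 0.12 and not called.

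Fgf8 lies on chromosome 19 with Tlx1, with 5 protein-coding genes between them. None of these 5 was called: Lbx1 was at 0.15, Btrc at -0.19, Poll at -0.04, Dpcd at -0.16 and Fbxw4 at -0.05, against -1.95 for Tlx1 and 0.48 for Fgf8. These neighbours were chosen after their values were seen, and whether position bears on Fgf8 was not tested.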
